A study of Sus scrofa with 21 samples.

Results

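Heat shock proteins are chaperones, proteins that bind unfolded or misfolded chains and help them reach or regain their shape. Members were taken as the rows of the merged gene count table whose pig gene symbol was on a list of 10 heat shock chaperone genes. The table of 24358 genes held 9 of the 10: HSPH1, HSP90AB1, HSPA8, HSPA5, HSPB1, HSPD1, HSPE1, DNAJB1 and BAG3. HSP90AA1 was not analysed here.

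The series holds bulk RNA sequencing of pig vessels and blood, made to compare a 3D-printed microbrush for sampling the vessel lining with a bare wire, with surgically removed aorta and with whole blood. There were 10 microbrush libraries, 5 from the peripheral kidney artery and 5 from the liver vessels, 4 wire libraries, 4 aorta libraries and 3 blood libraries. Wire 1 and 3 came from the liver and wire 2 and 4 from the kidney. From each of the pigs 243K and 248K came 5 of the microbrush and 2 of the wire libraries; blood 1 and blood 2 came from 243K and blood 3 from 248K. All 4 aorta libraries came from a single other pig, 237053, so pig and tissue cannot be told apart in any comparison with aorta. No treatment, age or sex of the animals is given in the labels. Since libraries of a group share pigs, the p-values below measure the spread between libraries, which may be technical, and not the spread between animals.

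In the cytosol, HSP70-type chaperones such as HSPA8 bind short exposed stretches of a client protein in cycles of ATP hydrolysis that J-domain partners start and exchange factors end, and clients can then pass on to HSP90. Small heat shock proteins hold unfolded proteins without ATP, HSPA5 works in the endoplasmic reticulum, and HSPD1 with its lid HSPE1 folds proteins inside mitochondria. Many of these genes are targets of heat shock factor 1 and rise under heat or protein damage, while HSPA8 and HSP90AB1 are mainly constitutive. Vessel wall smooth muscle is known for high levels of small heat shock proteins.

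Total counts were 1144932 to 10188552 in the microbrush libraries, 1946286 to 11128400 in the wire libraries and 1603229 to 3033008 in the aorta libraries. Blood 2 held 5634 counts over 302 genes and gave 0 counts for all 9 members, which allows a share of up to 0.0532% each; it was left out of levels and tests unless stated. Microbrush 4 held 3831 detected genes, wire 2 held 9714 and wire 3 held 10165, fewer than any other of the remaining libraries. Levels below are CPM, counts scaled to a common library total, after TMM scaling, which adjusts for library composition, and are compared between libraries for a given gene, not between genes. A change was called at a Benjamini-Hochberg adjusted p under 0.05 in edgeR's quasi-likelihood test over all genes tested, and a log2 difference is given with its standard error (SE).

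The groups were checked against marker genes of the cells they could hold. Summed smooth muscle markers (12 of 12 in the table) were at 26551 to 59573 CPM in aorta, 419.4 to 576.8 in blood, 2960 to 116590 in microbrush and 2245 to 7482 in wire libraries. ACTA2, CNN1, SYNPO2 and ACTG2 were at 0 in microbrush 4, and CNN1 was at 0 in wire 2. Summed white blood cell markers (10 of 10) were at 3137 and 7418 CPM in blood, 217.0 to 280.0 in aorta, 153.5 to 1970 in microbrush and 852 to 2391 in wire libraries. S100A8 was at 0 in aorta 1, in microbrush 2, 4 and 5 and in wire 1 and 2. Summed endothelial markers (10 of 12) were at 231.4 to 2165 CPM in microbrush and 270.7 to 1174 in wire libraries, against 180.3 to 232.2 in aorta and 179.9 to 216.8 in blood; EMCN was at 0 in microbrush 4 and 5 and wire 2 and 3. Fibroblast and matrix markers (7 of 7) summed to 177.9 to 65106 CPM in microbrush, 35.3 to 793.7 in wire, 2751 to 7566 in aorta and 25.7 and 64.4 in blood, and platelet markers (4 of 7) to 15.2 to 8885 CPM in microbrush, 1754 to 8110 in wire, 40.4 to 59.0 in aorta, and 131.7 and 366.8 in blood. Erythroid markers (5 of 6) summed to 31437 and 50886 CPM in blood, 2217 to 35223 in wire, 169.4 to 5782 in microbrush and 51.6 to 72.2 in aorta libraries. In bulk samples, fewer cells of a type and less RNA per cell cannot be told apart.

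The differences that passed the test in edgeR lay between aorta and blood. By group median, blood was highest for 7 of the 9 genes, and lowest for the other two, HSPB1 and BAG3. Between aorta and blood, 6 members were higher in blood and 2 higher in aorta, so that 8 of 9 passed the test, where 28.5% of 17082 genes did (18.7% higher in blood and 9.82% higher in aorta). No member passed between the microbrush and any other group, or between wire and aorta. In simulated data the test recovered 0 to 2 of 100 genes with a log2 change of 2 in each of those comparisons. Between aorta and blood it recovered 56 of 100. The absence of a call in the former therefore does not show equal levels. The range of the microbrush libraries covered that of the aorta libraries for each member, and overlapped that of the wire libraries for each.

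**Figure D1:**
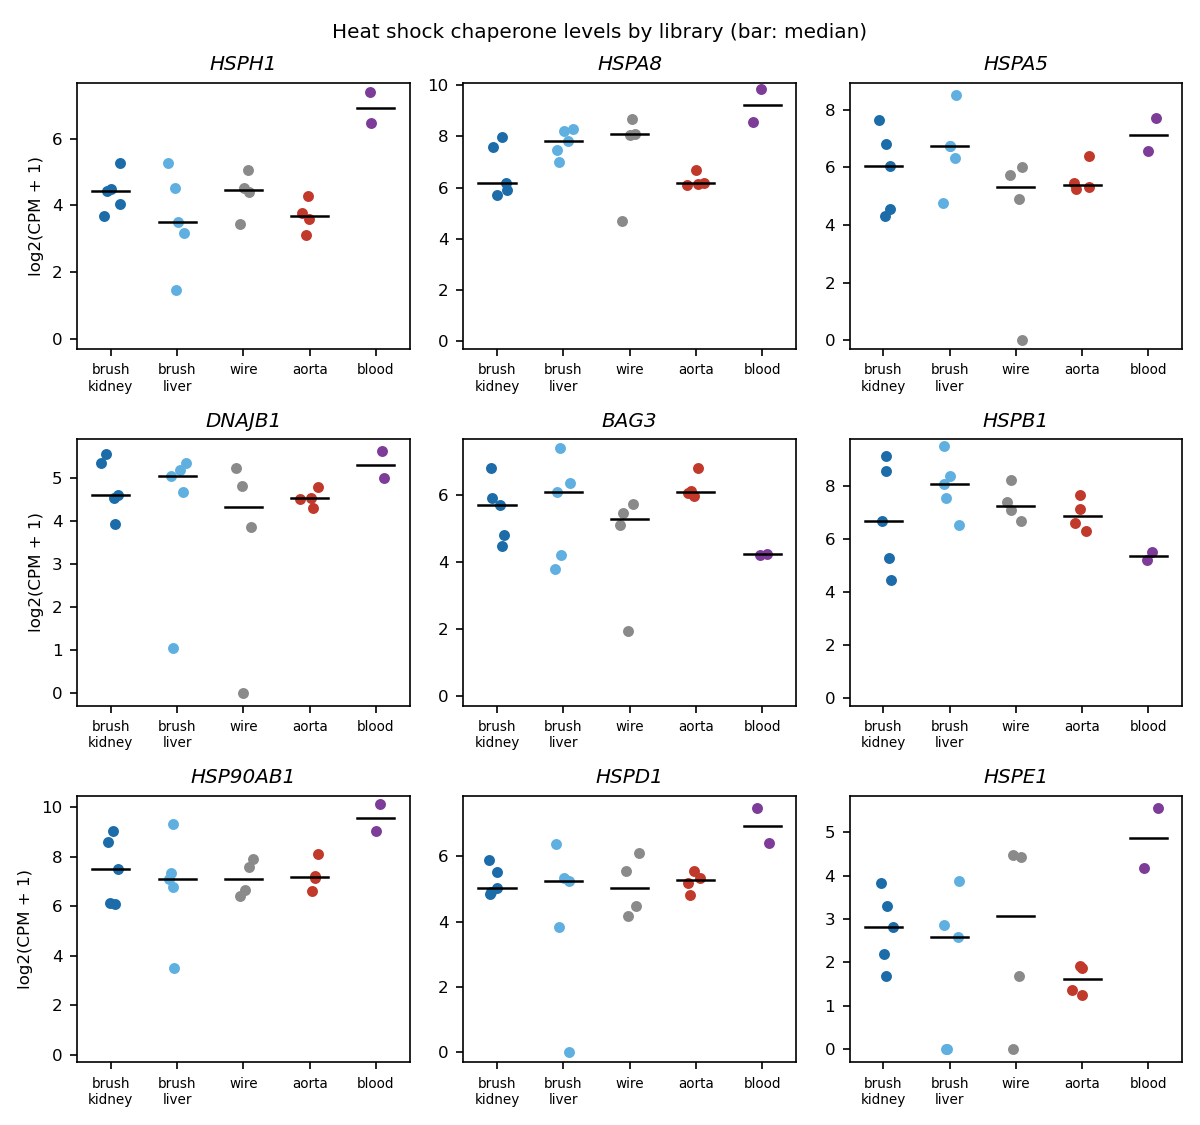
TMM-scaled CPM of each of the 9 chaperone genes (vertical axis) in every library with at least 100000 counts, by group (horizontal axis), with each point a library and the bar the group median. For HSPH1, blood (86.99 and 166.3 CPM) lies above every other library, while for BAG3 it lies below every aorta library (61.4 to 109.6 CPM).

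HSPH1 (ENSSSCG00000009334, chr11:7733874-7759528) encodes HSP105, an HSP110-family protein that acts as an exchange factor for HSP70; this and the other loci are from the RefSeq annotation of Sscrofa11.1, matched by symbol. It stood at 166.3 CPM in blood 1 and 86.99 in blood 3. The 4 aorta libraries were at 7.68, 11.0, 12.7 and 18.3 CPM, all far below blood. The wire libraries 1 to 4 were at 32.2, 22.1, 9.89 and 20.2 CPM, and the 10 microbrush libraries ran from 1.78 (microbrush 4) over a median of 18.2 to 37.5 CPM. No catheter or aorta library reached the blood range. The aorta mean of 12.5 ± 4.46 CPM (SD, n = 4) was 10.8-fold below the blood mean of 126.6 ± 56.1 (SD, n = 2) in the fitted values, a log2 difference of -3.44 (SE 0.43, edgeR adjusted p = 1.695e-13). Against the microbrush, HSPH1 differed from blood by -2.51 on the log2 scale (SE 0.94), with an unadjusted edgeR p of 0.0107 and an adjusted p of 1.

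HSPA8 (ENSSSCG00000015140, chr9:49982278-49986760) encodes HSC70, the constitutive cytosolic HSP70 that also strips clathrin from vesicles. Its level was 921.7 CPM in blood 1 and 381.6 in blood 3, and 70.5, 70.8, 66.9 and 103.2 in aorta 1 to 4. Aorta therefore formed a narrow band below blood, with a log2 difference of -3.15 (SE 0.55, edgeR adjusted p = 1.838e-07). The wire libraries were at 265.4, 24.6, 404.9 and 275.2 CPM, so that wire 1, 3 and 4 were above all aorta libraries and wire 2 below them. This gave a wire mean of 242.5 ± 158.6 CPM (SD, n = 4) against 77.8 ± 17.0 in aorta (SD, n = 4), a log2 difference of 1.90 (SE 0.70, edgeR adjusted p = 0.225) that did not pass. Without wire 2 it was 2.28 with an edgeR adjusted p of 0.02976, and limma voom with quality weights, which called 5.34% of genes, gave 1.75 with an adjusted p of 0.02412. Over the other alternatives the adjusted p was between 0.005131, without the catheter libraries under 12000 genes, and 0.6199, on total counts alone. Microbrush libraries ran from 51.8 over a median of 183.7 to 316.2 CPM and overlapped both aorta and wire, but not blood. Within the brush, the 5 liver libraries had a median of 228.4 CPM and the 5 kidney libraries 72.2 CPM, with ranges that overlapped. Scaled to total counts alone, these medians were 183.1 and 139.8 CPM, so that the gap depends on the scaling. The log2 difference (kidney minus liver) was -0.92 (SE 0.81, edgeR adjusted p = 0.9998).

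HSPA5 (ENSSSCG00000005601, chr1:265930044-265934959) encodes BiP, the HSP70 of the endoplasmic reticulum and a sensor partner of the unfolded protein response. Blood was at 207.3 and 93.3 CPM and aorta 1 to 4 at 36.7, 42.7, 38.7 and 83.0, without overlap. The log2 difference of aorta from blood was -1.67 (SE 0.46, edgeR adjusted p = 0.001845), and without blood 1 it was -0.94 with an adjusted p of 0.1338. The wire libraries were at 29.1, 0, 51.7 and 63.9 CPM, where the 0 counts in wire 2 allow up to 1.25 CPM. The microbrush libraries spread widely, from 18.7 over a median of 91.8 to 365.3 CPM, the last in microbrush 9. HSPA5 had the largest positive log2 value of the members between microbrush and wire, 1.53 (SE 0.95, edgeR adjusted p = 0.9998), with overlapping groups. That value was 1.08 without microbrush 9, 1.12 without wire 2 and 0.47 in limma voom.

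DNAJB1 (ENSSSCG00000013784, chr2:64761672-64764482) encodes HSP40, the J-domain partner that delivers clients to HSP70. Blood was at 48.3 and 31.0 CPM and aorta at 22.3, 21.8, 18.6 and 26.6, every aorta library below both blood libraries. DNAJB1 was the member that did not pass between aorta and blood, with a log2 difference of -0.89 (SE 0.44, edgeR adjusted p = 0.1177); without blood 3 it was -1.25 with an adjusted p of 0.0233. Wire 1 to 4 were at 36.4, 0, 13.4 and 27.1 CPM. The microbrush libraries ran from 1.07, in microbrush 4, over a median of 28.2 to 46.5 CPM, and covered both the aorta range and blood 3.

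BAG3 (ENSSSCG00000010686, chr14:129510240-129533998) encodes an exchange factor that links HSP70 and small heat shock proteins to autophagy in muscle. It went the other way, with blood at 17.4 and 17.9 CPM and aorta 1 to 4 at 68.8, 61.4, 65.3 and 109.6. Every aorta library was above both blood libraries, and the log2 difference was 2.05 (SE 0.49, edgeR adjusted p = 0.0002344). The wire libraries were at 51.6, 43.0, 2.80 and 32.8 CPM, each below every aorta library, as in 13.0% of genes tested. The log2 difference of wire from aorta was -1.10 (SE 0.68, edgeR adjusted p = 0.6728), which did not pass and was -0.72 without wire 3. Microbrush libraries ran from 12.8 over a median of 54.9 to 166.3 CPM, so that some lay below blood and others above all aorta libraries. Against blood, the microbrush value was 2.09 on the log2 scale (SE 1.24, edgeR adjusted p = 1).

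HSP90AB1 (ENSSSCG00000001701, chr7:39237299-39250479) encodes HSP90 beta, the constitutive cytosolic HSP90 that completes the folding of kinases and steroid receptors. Blood was at 1125 and 526.6 CPM, and aorta at 150.1, 139.4, 98.7 and 277.0. The aorta libraries did not overlap blood, with a log2 difference of -2.40 (SE 0.56, edgeR adjusted p = 0.0001712). Wire 1 to 4 were at 85.6, 100.1, 240.0 and 190.0 CPM, within or next to the aorta range. The microbrush libraries ran from 10.3 in microbrush 4 over a median of 148.9 to 637.7 CPM in microbrush 9, which lay above blood 3. Its counts were not whole numbers in 15 libraries (by more than 0.01), as when reads that match more than one sequence are divided between them. Counts of HSPH1 and HSPA8 were whole to within 0.01 in all libraries. Whether levels of HSP90AB1 are less certain for this was not tested.

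HSPD1 (ENSSSCG00000016077, chr15:101360355-101373498) and HSPE1 (ENSSSCG00000016078, chr15:101374019-101376146) encode HSP60 and HSP10, the barrel and the lid of the mitochondrial chaperonin, and are neighbours with 520 bases between them. HSPD1 was at 177.9 and 83.9 CPM in blood and at 35.3, 39.8, 27.1 and 46.3 in aorta. The aorta libraries were all lower, by a log2 difference of -1.89 (SE 0.44, edgeR adjusted p = 0.0001654). HSPD1 in the wire libraries was at 68.6, 17.1, 46.3 and 21.3 CPM, and in the microbrush libraries it ran from 0 in microbrush 4 over a median of 34.6 to 82.4. The fitted microbrush and aorta levels were within a log2 difference of -0.01, with a 95% interval from -1.57 to 1.54, wide enough to hold a sizeable change in either direction.

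HSPE1 was at 46.3 and 17.2 CPM in blood and at 2.79, 2.64, 1.59 and 1.38 in aorta, on 8, 11, 3 and 3 counts. It had the largest fitted difference of the members between aorta and blood, -3.92 on the log2 scale (SE 0.56, edgeR adjusted p = 8.038e-11). Wire 1 to 4 were at 20.6, 0, 2.24 and 21.3 CPM, so that wire 1 and 4 lay between the blood libraries. HSPE1 did not pass the filter on low counts between all wire and aorta libraries and was not tested there. Without the catheter libraries under 12000 genes, which leaves wire 1 and 4, it was tested. It was then, with HSPA8, among the 2 members called. Microbrush libraries held 0 to 13.6 CPM, with 0 counts in microbrush 4 (allowing up to 1.07 CPM) and microbrush 6 (up to 0.629 CPM). Per 100 HSPD1 counts there were 2.97 to 7.92 HSPE1 counts in the aorta libraries and 20.45 and 26.03 in blood. The same ratio was spread from 0 to 100 in wire and from 0 to 31.75 in the 9 microbrush libraries with HSPD1 counts. No test was made of the ratio.

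HSPB1 (ENSSSCG00000039962, chr3:10038074-10039441) encodes HSP27, a small heat shock protein abundant in muscle that also binds actin. Blood was lowest, at 45.0 and 35.7 CPM, and aorta 1 to 4 were at 78.2, 96.4, 139.1 and 200.9. Aorta was above blood in every library, with a log2 difference of 1.60 (SE 0.53, edgeR adjusted p = 0.01152). Wire 1 to 4 were at 136.7, 167.3, 299.5 and 102.5 CPM. The microbrush libraries ran from 21.0 over a median of 230.5 to 737.5 CPM, the widest range of any group for this gene, from below blood to above every other library. Between microbrush and blood the log2 difference was 3.05 (SE 1.39), with an unadjusted edgeR p of 0.033 and an adjusted p of 1. Counts of HSPB1 were also not whole in 15 libraries.

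The aorta and blood result rests on 2 blood libraries, and the aorta libraries are of another pig than the blood. By each member's own libraries, 7 of the 9 were lower in every aorta library than in both blood libraries, as in 22.9% of genes tested, and 2 were higher, as in 19.1%. The median log2 difference of the members was -1.89, against 0.15 over all genes tested. None of the 8 calls was made when all groups were fitted together with a common spread, where edgeR's adjusted p was 0.1314 to 1 and 97 genes in all passed. None was made either with the nearly empty blood 2 kept, where 239 genes passed and HSPE1 was not tested. Leaving out a single library left 7 to 9 calls. Smooth muscle and white blood cell markers move with the same contrast, at the levels given above, and their part in the result was not tested.

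**Figure D2:**
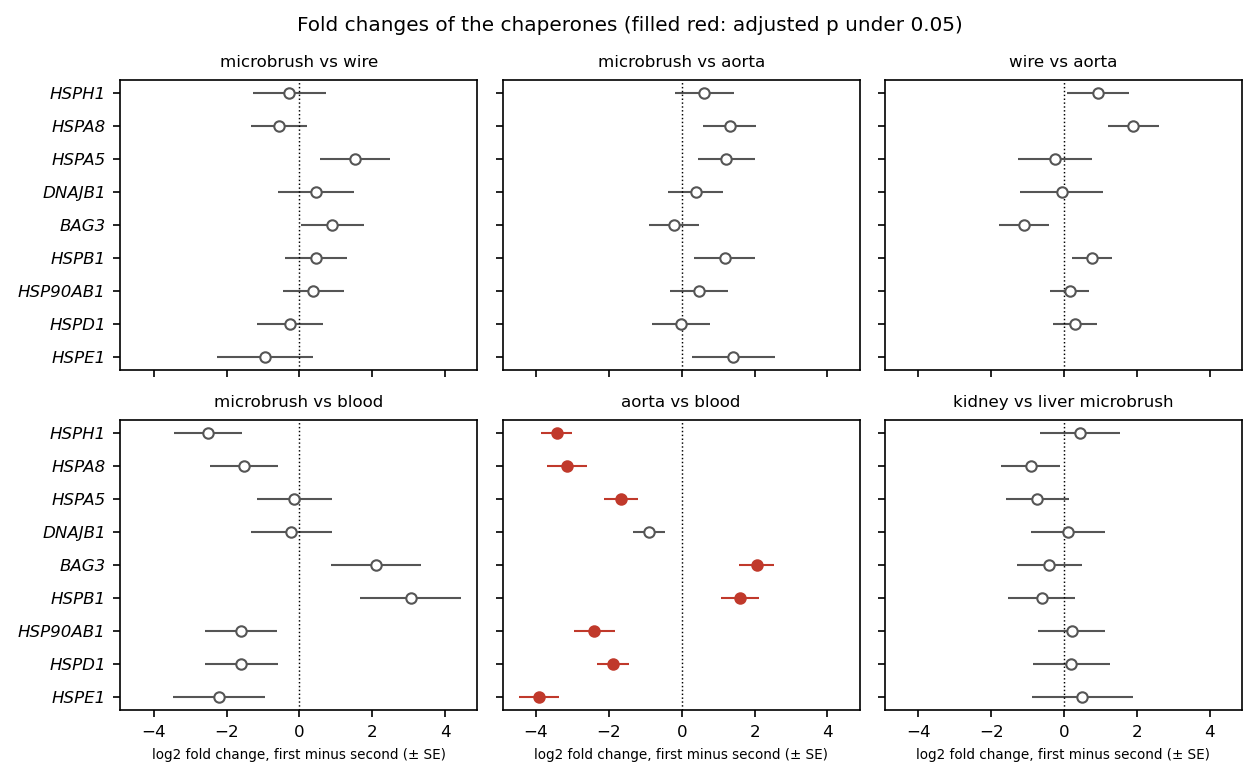
Log2 differences of the members (horizontal axis, points, with bars of 1 SE) in each of 6 comparisons, where a positive value is higher in the first-named group and filled red points passed an edgeR adjusted p of 0.05. Only the panel of aorta against blood holds red points, 6 below 0 and 2 above.

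Between microbrush and wire 0 of 9 members passed, as did 0% of 16439 genes in edgeR, where 518 genes (3.15%) had an unadjusted p under 0.05, DESeq2 called 0.614% and limma voom 0. The members' log2 differences ran from -0.94 for HSPE1 (SE 1.33) to 1.53 for HSPA5, with a median of 0.39 against 0.17 over all genes. BAG3 had 0.90 (SE 0.87) and HSPA8 -0.57 (SE 0.77), both with overlapping libraries. Leaving out single libraries moved BAG3 from 0.53 (without wire 3) to 1.21 (without wire 1), HSPA8 from -0.94 (without wire 2) to -0.10 (without wire 3) and HSPE1 from -1.35 (without wire 2) to -0.41 (without wire 1). Whether the brush differed from the wire to another extent in the kidney than in the liver was tested as an interaction, which gave 0 calls in 17809 genes (525 with an unadjusted p under 0.05) and an edgeR adjusted p of 1 for each member.

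Between microbrush and aorta 0 of 9 members passed in edgeR, where 0.125% of genes did, and DESeq2 (1.23% of genes) and limma voom (4.51%) called none of them either. HSPE1 at 1.41 (SE 1.14), HSPA8 at 1.32 (SE 0.73), HSPA5 at 1.23 (SE 0.78) and HSPB1 at 1.18 (SE 0.84) had the largest log2 values, all with an edgeR adjusted p of 0.9998. The libraries of both groups overlapped for each of the 9. The median over the members was 0.62, against -0.17 over all genes tested. For HSPB1 the value was -0.11 in limma voom, and without microbrush 9 HSPA5 was at 0.81.

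Between wire and aorta 0 of the 8 members tested passed, where 3.57% of 15313 genes did. HSPA8 and BAG3, described above, were the members farthest from 0, in opposite directions, followed by HSPH1 at 0.93 (SE 0.85, edgeR adjusted p = 0.8402) and HSPB1 at 0.76 (SE 0.54, edgeR adjusted p = 0.7477). HSPB1 was at 0.21 without wire 3, at -0.17 on total counts alone and at -0.07 without the catheter libraries under 12000 genes. Several marker lists moved with this contrast. Summed smooth muscle and fibroblast and matrix markers were lower in every wire library than in every aorta library. Of these, 6 of 12 and 2 of 7 genes were called lower in wire. In each list 1 gene went the other way, that of smooth muscle with an unadjusted edgeR p under 0.05. Summed white blood cell, platelet, erythroid and endothelial markers were higher in every wire library. Of the genes tested, 3 of 9, 3 of 4, 2 of 5 and 2 of 10 were called, while 2 of the 10 endothelial genes had a log2 value below 0. S100A8 was at 0 in wire 1 and 2 and CD2 in wire 2. TEK and ERG were at 0 in wire 2, ERG and ROBO4 in wire 3, and EMCN in both. The part of these cells in the members' values was not tested.

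Between microbrush and blood 0 of 9 members passed, where 0.0168% of genes did. Every microbrush library was below both blood libraries for HSPH1, HSPA8, HSPD1 and HSPE1, a pattern found in 5.49% of genes tested. Their log2 differences were -2.51, -1.52 (SE 0.93), -1.60 and -2.22 (SE 1.26). Without blood 1 they were -2.03, -0.81, -1.02 and -1.40, and without blood 3 they were -3.16, -2.39, -2.29 and -2.98. This comparison and that of aorta with blood share the blood libraries. With limma voom and quality weights, HSPH1 and HSPE1 passed (adjusted p = 0.0118 and 0.01669, 6.07% of genes called), and with DESeq2 HSPB1 did (adjusted p = 0.01554, 1.62% of genes called).

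**Figure D3:**
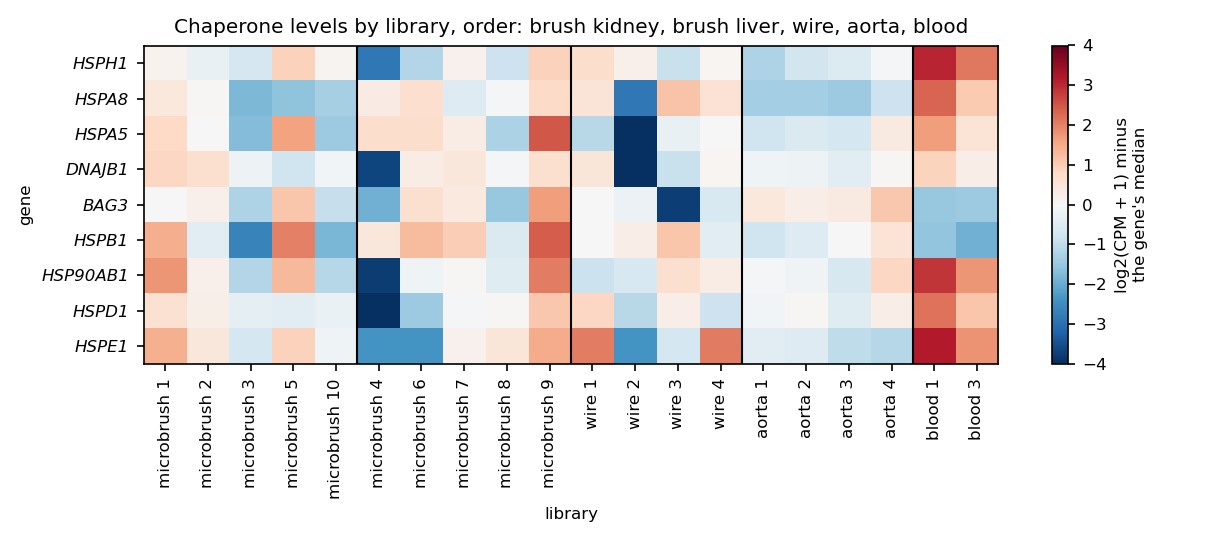
Heat map of the 9 chaperone genes (rows) in the 20 libraries with at least 100000 counts (columns, by group), coloured by log2(CPM + 1) minus the gene's median over the libraries, with colours clipped at 4 in either direction. Microbrush 9 is high and microbrush 4 low across most genes, and the blood columns are high except for HSPB1 and BAG3.

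The chaperones varied widely between microbrush libraries. After TMM scaling, microbrush 9, a liver library of pig 243K, was the highest of the 10 for 7 of the 9 members. Microbrush 4 was the lowest for 6 and microbrush 3 for the other 3. TMM factors ran from 0.468 in microbrush 6 to 2.135 in microbrush 3, and these ranks depend in part on them. On total counts alone, microbrush 2 was above microbrush 9 for HSPA8 (288.6 against 256.2 CPM) and HSPD1 (68.9 against 66.8). Microbrush 3 was then above microbrush 5 for HSPA8 (110.2 against 55.1) and above microbrush 8 for HSPA5 (39.9 against 26.8). Markers differed between microbrush 9, 4 and 3 too. Summed smooth muscle markers were at 107890 CPM in microbrush 9 and at 3181 and 3656 in microbrush 4 and 3. This sum was highest of the 10 in microbrush 5, at 116590 CPM, and lowest in microbrush 10, at 2960 CPM. Fibroblast and matrix markers were at 65106 CPM in microbrush 9, the highest of all libraries, against 177.9 and 885.8 in microbrush 4 and 3. Microbrush 8, at 395.3 CPM, had less of them than microbrush 3. Platelet markers were at 15.2 CPM in microbrush 9, 3402 in microbrush 4 and 209.5 in microbrush 3. The part of these cells in the members' levels was not tested. Summed over the 9 genes, levels ran from 246.3 over a median of 753.9 to 2396 CPM in microbrush, 374.2 to 1071 in wire, 468.6 to 866.4 in aorta, and were 1274 and 2755 in blood. The coefficient of variation for the sum was 0.703 in the microbrush, 0.520 in blood, 0.389 in wire and 0.341 in aorta. For single members it was higher in wire than in microbrush for HSPA8 (0.654 against 0.547), HSPE1 (1.041 against 0.823) and DNAJB1 (0.827 against 0.491). For the other members it was higher in microbrush, by little for HSPD1 (0.6256 against 0.6249).

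Split by vessel, no difference was called between the brush libraries: 0 of 9 members and 0% of 15013 genes passed in edgeR, where 238 genes (1.59%) had an unadjusted p under 0.05, DESeq2 called 66 and limma voom 0. The members' median log2 difference (kidney minus liver) was 0.10, against 0.50 over all genes tested. A split by pig was looked at after the values were seen. All 9 members had a higher mean in the 5 brush libraries of pig 243K than in the 5 of 248K, where 56.8% of genes were higher, and none passed. Microbrush 9, the highest for 7 members after TMM scaling, is of pig 243K, and microbrush 4, the lowest for 6, is of 248K. The pigs also differ in their mix of kidney and liver libraries. The pattern was not tested without microbrush 4 or 9. BAG3 was at 88.7 ± 53.2 CPM (SD, n = 5) in 243K and 33.9 ± 23.9 (SD, n = 5) in 248K, a log2 difference of 1.43 (SE 0.86, edgeR adjusted p = 0.9999).

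Over the 10 microbrush libraries the members did not all move together. Spearman's rho between pairs of members ran from -0.152 for HSPH1 with HSPA8 to 0.964 for HSPA5 with HSPB1, with 0.802 for HSPD1 with HSPE1 and 0.758 for HSPB1 with BAG3. These are descriptions over libraries that share pigs and differ in depth. The genes whose log2(CPM + 1) most resembled the members' mean over the 20 libraries were CGGBP1 (rho 0.959), RANBP2 (0.959), NDUFS1 (0.950), H1-3 (0.942) and CCT5 (0.938), among 9825 genes. Over the 10 microbrush libraries alone, ANTXR2, FAR1, SRPRA, TMX4 and ZMYM2 reached a rho of 1, and 797 genes lay above 0.9, so that likeness to the members is common there.

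**Figure D4:**
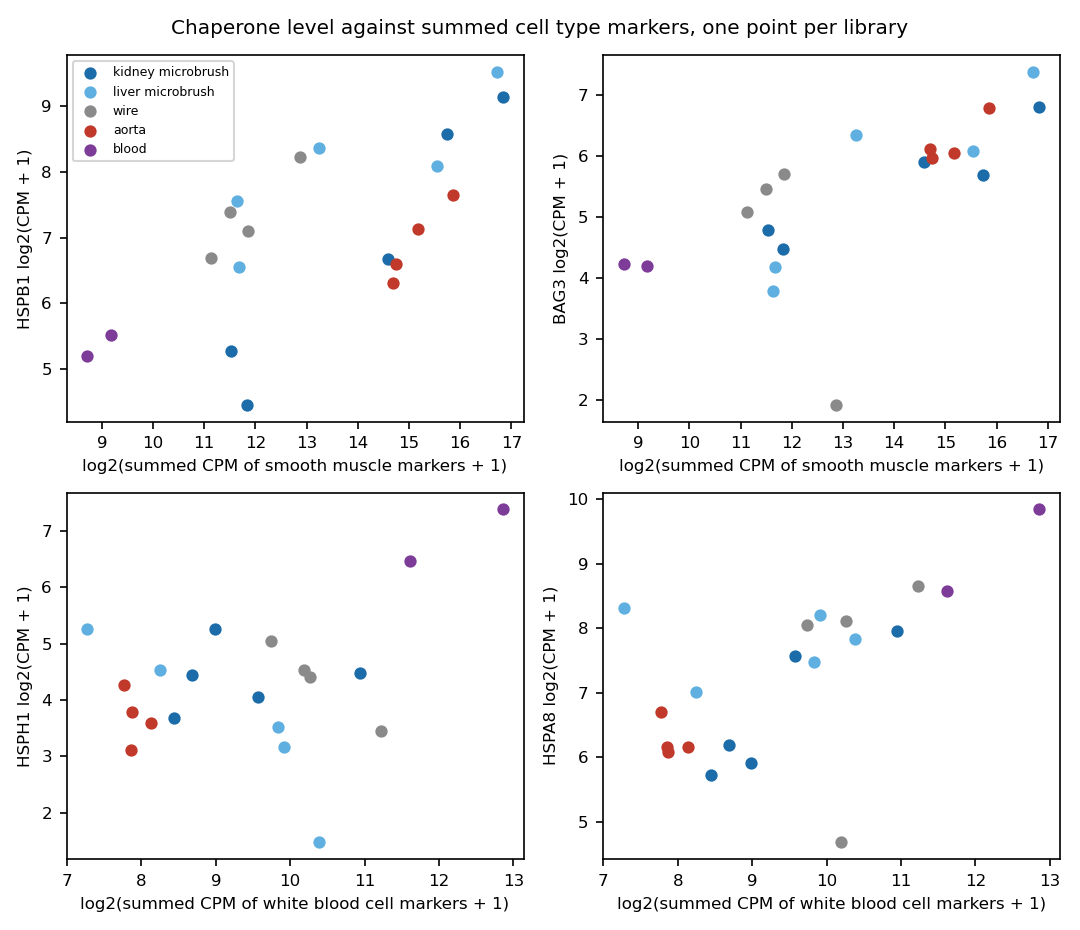
HSPB1 and BAG3 CPM against summed smooth muscle marker CPM, and HSPH1 and HSPA8 CPM against summed white blood cell marker CPM, all on log axes, with each point a library coloured by group. Blood has the lowest smooth muscle sums (419.4 to 576.8 CPM) and low HSPB1 and BAG3, and the highest white blood cell sums with the highest HSPH1; wire 3 has more HSPA8 (404.9 CPM) than blood 3 (381.6 CPM).

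Partners of the members were read from 8 lists of other chaperone genes, with 84 genes in the table. Between aorta and blood, 38 of 82 tested were higher in blood, against 18.7% of all genes, and 5 higher in aorta, a smaller share than the 9.82% of all genes. The cytosolic chaperonin CCT and prefoldin, which fold actin and tubulin, had 10 of 11 tested genes higher in blood, CCT3 with a log2 difference of -2.97 (SE 0.45, edgeR adjusted p = 1.182e-09). Of the HSP90 co-chaperones 8 of 13 were higher in blood, with PTGES3, the p23 co-chaperone, at -3.00 and CACYBP at -2.93. Of the endoplasmic reticulum list 8 of 17 were higher in blood, among them the disulfide isomerase PDIA3 at -2.48 and the lectin chaperone CALR at -1.91. The HSP70 exchange and regulatory factors had 3 of 7 higher in blood, with ST13 at -2.73. These examples were chosen after their values were seen.

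DNAJA1, a J-domain partner of HSP70 on the cytosolic list (5 of 13 higher in blood), had the largest difference of the named partners between aorta and blood. It was at 807.4 ± 522.8 CPM in blood (SD, n = 2) and 24.9 ± 11.0 in aorta (SD, n = 4), a log2 difference of -5.10 (SE 0.59, edgeR adjusted p = 5.734e-16). In the wire libraries it was at 252.3 ± 216.1 CPM (SD, n = 4), higher than in aorta by 3.67 on the log2 scale (SE 0.76, edgeR adjusted p = 0.02439), the only one of 79 tested list genes to pass there, a smaller share than the 3.57% of all genes. Leaving out any aorta library ended that call, with adjusted p-values of 0.06584 to 0.1284, and so did a common fit of all groups (3.34, adjusted p = 0.0616). In the microbrush it was at 165.7 ± 125.2 CPM (SD, n = 10), a log2 difference from aorta of 2.94 (SE 0.89, edgeR adjusted p = 0.2747) that passed in DESeq2 (adjusted p = 0.009891) and limma voom (adjusted p = 0.01652).

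Of the small heat shock proteins, 3 of 4 tested were higher in aorta, against 9.82% of all genes: CRYAB, or alpha B crystallin, at 2.61 (SE 0.61), HSPB6 at 1.84 (SE 0.52) and HSPB8, the partner of BAG3, at 1.24 (SE 0.46). The call for HSPB8 was lost when aorta 1, 2 or 4 or blood 1 was left out, with edgeR adjusted p-values of 0.05061 to 0.6039, in limma voom and on total counts alone. The mitochondrial list had HSPA9 and CLPX of 9 tested higher in blood, HSPA9 at -1.77 (SE 0.46; adjusted p = 0.05061 without blood 1), and GRPEL2, a nucleotide exchange factor of the mitochondrial HSP70, higher in aorta at 2.81 (SE 0.53). SERPINH1, the collagen chaperone HSP47 and a heat shock factor target, had the largest difference in the direction of aorta, 4.67 (SE 0.62, edgeR adjusted p = 3.062e-12). IER5 and UBB, of the same list of 8 tested, were higher in blood. Leaving out blood 1 or aorta 1 ended the call for CLPX (edgeR adjusted p = 0.5387 and 0.05117), as did total counts alone (0.0854). Without blood 1 or aorta 1, 2 or 3 the call for UBB was lost (edgeR adjusted p = 0.06931 to 0.6768). Like those of the members, the calls named here between aorta and blood were lost in the common fit, apart from that for DNAJA1 (adjusted p = 0.008623), and all were lost with blood 2 kept.

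In the microbrush, 0 of 81 list genes passed against wire, 0 of 81 against aorta, 0 of 83 against blood and 0 of 81 between kidney and liver in edgeR. Beside DNAJA1, log2 values against aorta were 3.32 for the prefoldin subunit VBP1 (SE 1.19, edgeR adjusted p = 0.5032), -2.32 for the glucocorticoid-induced HSP90 co-chaperone FKBP5 (SE 0.73, edgeR adjusted p = 0.3128) and -2.11 for GRPEL2 (SE 0.81, edgeR adjusted p = 0.6101). FKBP5 was at 24.9 ± 15.5 CPM in microbrush (SD, n = 10) and 134.3 ± 38.5 in aorta (SD, n = 4), and passed in DESeq2 (adjusted p = 0.01744) and limma voom (adjusted p = 1.469e-05). Against wire, CRYAB had 5.21 (SE 1.64, edgeR adjusted p = 0.6679), with 55.3 ± 77.3 CPM in microbrush (SD, n = 10) and 1.37 ± 2.37 in wire (SD, n = 4). That value was 8.24 without wire 1 and 4.50 without microbrush 9, and with the wire mean near 0 its size is uncertain.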

How the data were processed

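The authors deposited estimated counts per Ensembl gene, merged over 21 samples. Per the submitters' processing notes, Salmon, DESeq2 and the build Sscrofa11.1 were used; versions are not given in the sources used here. Per the labels' protocols, the RNAdvance Tissue kit, at volumes divided by 13, gave total RNA for SMARTer Pico libraries. Here the counts were rounded, genes were filtered (edgeR filterByExpr, minimum count 10), scaled by TMM and tested with edgeR 4.0.16 in R 4.3.3 (robust quasi-likelihood fit on the libraries of each comparison, adjusted p under 0.05 over all genes). Alternatives used limma 3.58.1 (voom) and DESeq2 1.42.0. The script was tested on data simulated for each comparison. A log2 change of 4 was recovered for 100 of 100 genes between aorta and blood and for 11 to 42 of 100 in the other comparisons. A log2 change of 2 between kidney and liver was recovered for 0 of 100. The limits given for 0 counts are 3 counts of the total and cover counting error only. No pair of libraries in a group agreed within sampling noise. Blood 2, with under 100000 counts, was left out. The 11.9% of values that were not whole were rounded for the tests and for the TMM-scaled levels. Levels on total counts alone used the values as deposited. The pigs, not the replicate numbers, link libraries, and the fit with pig as a block changed no count of members called.

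Members, lists and the leaving out of blood 2 were chosen with earlier results of these data known. Named genes were the members and, from each list, up to 3 genes with the smallest p between microbrush and aorta and up to 2 between microbrush and wire, of which the text gives a few; partners named between aorta and blood were chosen after their values were seen.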

Additional observations from a re-analysis of the deposited data

Results flagged for a closer look

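Of 27 gene and group combinations with 4 to 10 libraries, 5 held a library whose gap to its nearest neighbour was large for the group's range on the log2(CPM + 1) scale, where chance gives about 1 in 20. HSPA8 was lowest in wire 2, at 24.6 CPM, and highest among the aorta libraries in aorta 4, at 103.2 CPM. In microbrush 4, the brush library with 3831 detected genes, HSPD1 was lowest at 0 CPM and DNAJB1 at 1.07 CPM. BAG3 was lowest in wire 3, at 2.80 CPM.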

How the results depend on the processing

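The number of members called was recomputed under each alternative in 6 comparisons; 97 counts were within 1.5 times of the one reported and 7 were not. Between wire and aorta the count was 1 in limma voom and 0 to 1 on leaving out single libraries. It was 2, HSPA8 and HSPE1, without the catheter libraries under 12000 genes (chosen after seeing the data). Between microbrush and blood it was 1 in DESeq2 and 2 in limma voom, and between aorta and blood it was 0 in a common fit and 0 with the nearly empty blood library. Pig as a replicate block gave 0 in each of the comparisons it could be fitted in (microbrush with wire, microbrush with blood, kidney with liver). All genes called ranged from 97 to 6990 between aorta and blood (4875 as reported), 62 to 1515 between wire and aorta (546), 3 to 757 between microbrush and aorta (21), 0 to 1082 between microbrush and blood (3), up to 0.614% of genes, in DESeq2, between microbrush and wire (0 genes) and 0 to 66 between kidney and liver (0).

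Of 914 alternative log2 values of single members, 69 changed sign, none of a called member; 66 of these were among the 481 of members that lay within 1 SE of 0 as reported, for which no direction is given. Of 579 values of the other named partners, 1 changed sign, and for none of the changes was the cause tested. DESeq2 and RLE scaling gave 0.16 and 0.16 for HSPD1 between microbrush and wire, -0.034 and -0.034 for HSP90AB1 between microbrush and aorta, -0.094 and -0.094 for HSP90AB1 between wire and aorta, and, between microbrush and blood, 0.087 and 0.086 for HSPA5 and 0.19 and 0.20 for DNAJB1. Total counts alone gave 0.23 for HSPH1 and 0.49 for HSPD1 between microbrush and wire, -0.71 for HSP90AB1, -0.17 for HSPB1 and -0.56 for HSPD1 between wire and aorta, and 0.22 for BAG3 between kidney and liver. Limma voom gave -0.18 for HSP90AB1, -0.15 for HSPB1 and 0.13 for HSPD1 between microbrush and wire, -0.15, -0.11 and 0.047 for the same genes and -0.0085 for ST13 between microbrush and aorta, 0.11 for DNAJB1 between wire and aorta, and 0.20 for BAG3 between kidney and liver. HSP90AB1 between wire and aorta was -0.11 in the common fit and -0.050 with no filter. Kidney libraries alone gave 0.0060 for HSPH1 and 1.01 for HSPD1, and pig 248K alone -0.16 for HSP90AB1, -0.42 for HSPB1 and 1.997 for HSPE1, all between microbrush and wire. Brushes of pig 243K alone gave 0.14 for HSPD1 and 0.30 for BAG3 against aorta, and blood 2 kept gave 0.58 for HSPA5 and 0.25 for DNAJB1 between microbrush and blood. Without libraries under 5000 genes, HSPD1 was 0.071 between microbrush and wire and 0.14 between microbrush and aorta, and between kidney and liver HSP90AB1 was -0.092, HSPD1 -0.12 and DNAJB1 -0.21. Without catheter libraries under 12000 genes, DNAJB1 was -0.025 between microbrush and wire, HSPD1 0.14 between microbrush and aorta, and between wire and aorta HSP90AB1 was -0.27, HSPB1 -0.069 and DNAJB1 0.53.

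On leaving out single libraries, values between kidney and liver ran from -0.81 to 0.12 for BAG3, -0.21 to 0.29 for DNAJB1, -0.28 to 1.12 for HSP90AB1 and -0.12 to 0.76 for HSPD1. Between wire and aorta they ran from -0.55 to 0.35 for DNAJB1, -0.33 to 0.51 for HSP90AB1, -0.74 to 0.16 for HSPA5 and -0.057 to 0.54 for HSPD1. Between microbrush and blood the range was -0.80 to 0.072 for DNAJB1 and -0.93 to 0.48 for HSPA5, and HSPD1 ran from -0.24 to 0.062 between microbrush and aorta and from -0.55 to 0.10 between microbrush and wire. RLE scaling moved the median log2 value of all genes from 0.17 to 0.60 between microbrush and wire and from 0.50 to 0.83 between kidney and liver. Total counts alone moved it to 1.13 between kidney and liver and from -0.29 to -0.94 between wire and aorta. HSPE1 in aorta and the members at 0 in wire 2, microbrush 4 and microbrush 6 rest on few counts, which limits their differences.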
